A study of Drosophila melanogaster with 8 samples.

Results

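The Cpr genes of Drosophila melanogaster encode cuticle proteins that carry the chitin-binding Rebers-Riddiford domain. Each member here is a gene whose symbol in the platform annotation is Cpr followed by a digit (which leaves out Cpr itself, a cytochrome P450 reductase gene). A gene was kept if the platform annotation gave it a probe set that names no other gene, and its probe set with the highest mean intensity stood for it. That gave 66 of 11982 genes, with 67 probe sets, out of 70 Cpr genes in the fly annotation. Their expression was measured in S2 cells, an embryo-derived Drosophila line with features of blood cells, on 8 Affymetrix arrays in 4 groups of 2. dSTING RNAi dsDNA cells received dsRNA that targets dSTING (the STING gene of the fly), followed 3 days later by a dsDNA of 90 nucleotides. dSTING RNAi mock cells received the same dsRNA and then lipofectamine only. Control dsDNA and control mock cells received non-specific dsRNA in its place, followed by the dsDNA or by lipofectamine only. All cells were lysed 24 hours after the last step, so every group had been transfected with a dsRNA, and no group was left untransfected. Groups follow the titles, because in 4 samples the genotype tag follows the DNA treatment in place of the RNAi.

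The insect cuticle is a layered extracellular matrix of chitin fibres and proteins, secreted on the apical side by epidermis and by the lining of the trachea, foregut and hindgut. Cpr proteins bind the chitin, and the mixture of family members laid down in a region is thought to set how soft or hard the cuticle becomes there. Their genes are switched on in waves around each moult, under the steroid hormone ecdysone and the nuclear receptors it induces. Blood cells make no cuticle.

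Sting, the dSTING gene, followed the titles and read 3.45 to 8.05 in the 4 RNAi arrays, against 48.7 to 53.1 in the 4 control arrays. One array of the dSTING RNAi dsDNA group and one of the control mock group, number 2 in each case, stood apart on principal component 1, with 36.6% of the variance (-16.1 and 15.6, against -4.01 to 6.50 for the other arrays). Deposited intensities have a floor of 1, and an intensity compares arrays for the same probe set but does not rank the RNA amounts of different genes. A value at the floor does not say that a transcript was absent.

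Nearly all Cpr genes lay at or close to that floor in every group. The mean intensity over the 8 arrays ran from 1.01 to 5.29 with a median of 1.11, and 62 of the 66 genes never read above 2 on any array. Of all 11982 genes, 47.0% read above 2 on at least 1 array, against 6.06% of Cpr genes. No Cpr gene had a mean log2(intensity + 1) above 3, a level that 29.6% of all genes exceeded. Cpr49Ac was the 1 member above a level of 2, which 39.3% of all genes exceeded. These shares describe probe sets, and no test was made of them. In such bulk samples, fewer cells expressing a gene and less RNA per cell cannot be told apart.

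**Figure D1:**
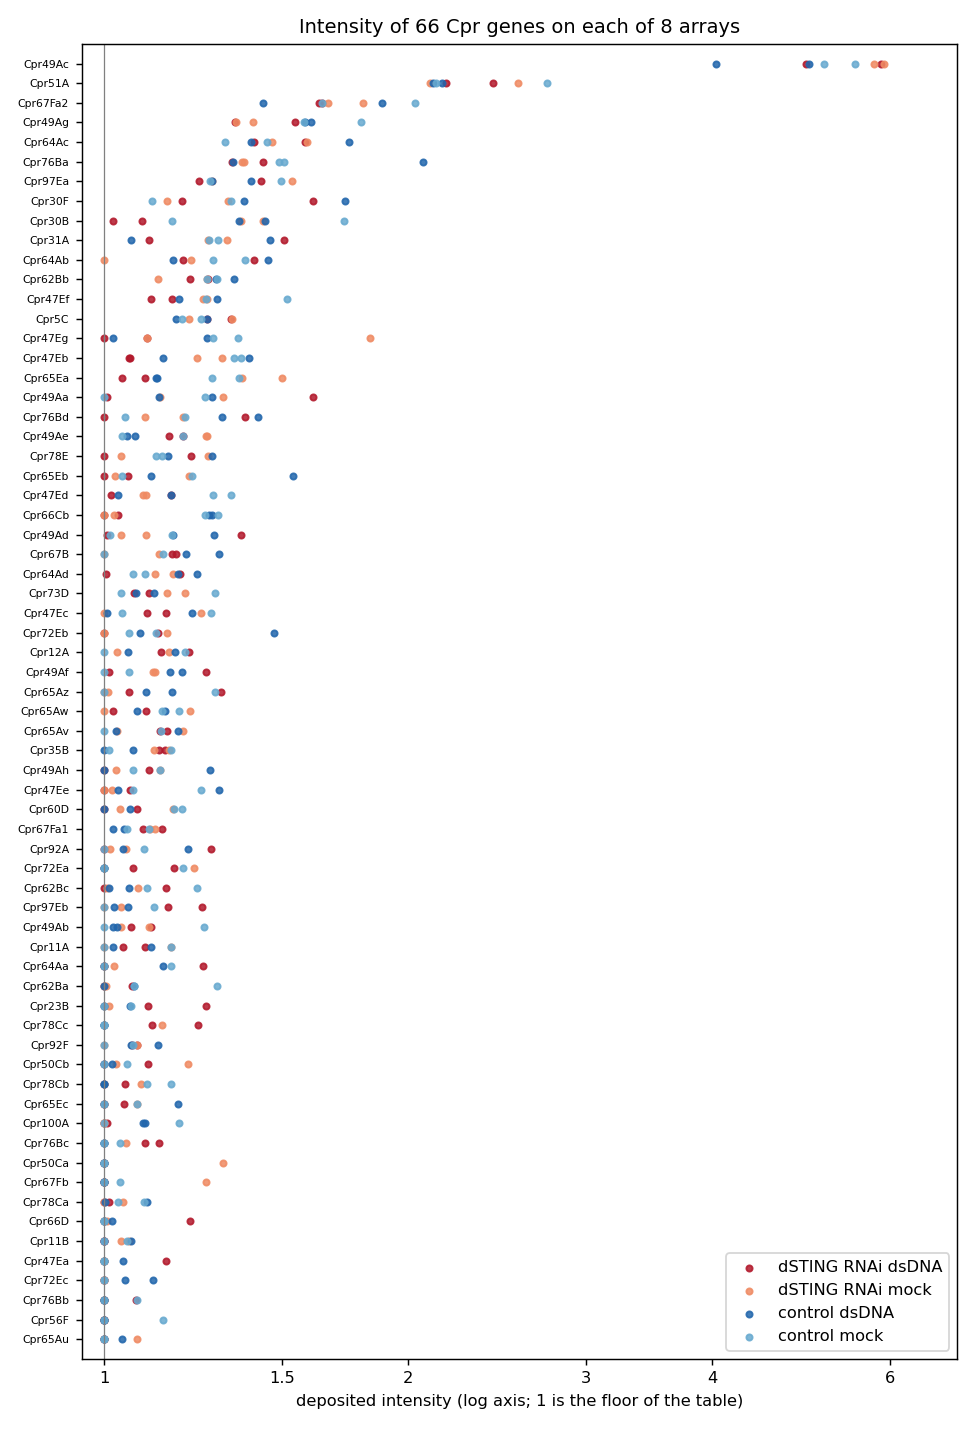
Deposited intensity (horizontal, log axis) of the 66 Cpr genes (rows, by falling mean intensity), with a point for each of the 8 arrays, coloured by group. Cpr49Ac stands at 4.04 to 5.93, Cpr51A at 2.10 to 2.75, and 62 genes have no point above 2.

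**Figure D2:**
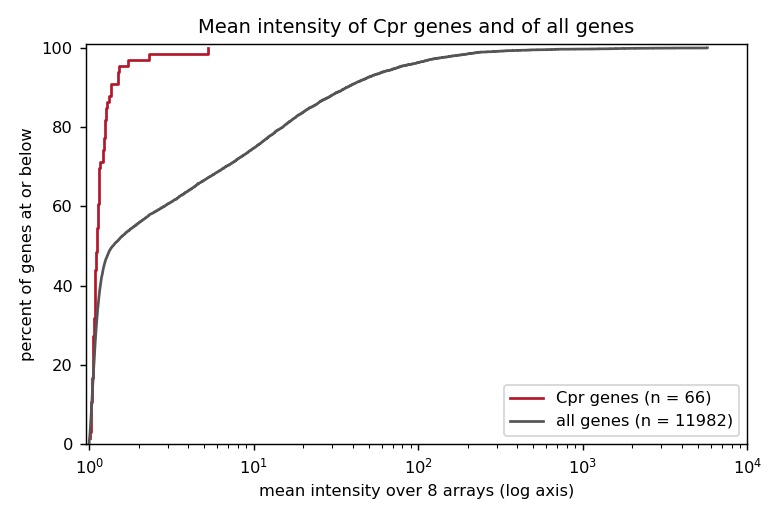
Percent of genes (vertical) at or below a mean intensity over the 8 arrays (horizontal, log axis), for 66 Cpr genes and all 11982 genes. The Cpr curve ends at 5.29, while 29.6% of all genes exceed a mean log2 level of 3.

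Cpr49Ac was the member furthest from the floor. Its intensity was 4.96 and 5.88 in dSTING RNAi dsDNA cells, 5.79 and 5.93 in dSTING RNAi mock cells, 4.04 and 4.99 in control dsDNA cells, and 5.16 and 5.54 in control mock cells. The lowest value belonged to a control dsDNA array and the highest to a dSTING RNAi mock array, and the ranges of RNAi and control arrays overlapped. RefSeq lists 6 transcripts for this gene, the most of any Cpr gene, and no other has more than 3.

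Cpr51A came next and never touched the floor. It read 2.43 and 2.18 in dSTING RNAi dsDNA cells, 2.57 and 2.10 in dSTING RNAi mock cells, 2.16 and 2.11 in control dsDNA cells, and 2.13 and 2.75 in control mock cells. In both mock groups the 2 arrays of a group lay further apart than the group means did. Cpr67Fa2 ranged from 1.44 to 2.03 and Cpr76Ba from 1.34 to 2.07, each passing 2 on a single control array. Cpr49Ag (1.35 to 1.80), Cpr64Ac (1.32 to 1.75), Cpr97Ea (1.24 to 1.54), Cpr30F (1.11 to 1.73), Cpr30B (1.02 to 1.73) and Cpr31A (1.06 to 1.51) completed the 10 with the highest means. None of these 10 was at exactly 1 on any array.

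The remaining 56 genes shaded into the floor. Of the 528 values of Cpr genes, 129 (24.4%) were exactly 1, against 16.7% of the values of all genes. At least 1 array read 1 for 45 members, and 16 members did so on 4 or more arrays. Cpr50Ca and Cpr56F were at 1 on 7 arrays, the most for any member, and on the remaining array Cpr50Ca read 1.31, a dSTING RNAi mock array, and Cpr56F 1.14, a control mock array. No member was at 1 on all 8 arrays. The number of members at 1 was 15 and 18 in dSTING RNAi dsDNA cells, 14 and 20 in dSTING RNAi mock cells, 16 and 12 in control dsDNA cells, and 20 and 14 in control mock cells. The 2 arrays of a group thus differed as much as the groups did.

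The family is clustered in the genome, and readings were low across the clusters. In the Release 6 plus ISO1 MT annotation, 41 of the 70 Cpr genes lie next to another Cpr gene, and 49 fall into 12 cytological bands, as their symbols give them, that hold 2 or more. Arm 3L carries 35 and arm 2R 21. Band 49A holds 8 genes with 7 other protein-coding genes between them. There Cpr49Ac had its readings of 4.04 to 5.93, while no reading of the other 7 exceeded 1.80. Cpr49Ab, its neighbour in the naming order, ranged from 1 to 1.25 and Cpr49Ad from 1.01 to 1.36. In band 47E the 7 genes ranged from 1 to 1.83, in band 65A the 4 measured ones from 1 to 1.31 and in band 78C the 3 from 1 to 1.24. Cpr genes are short, with a median gene length of 1094 bases against 2160 for all 13962 protein-coding genes, and 75.7% have a single RefSeq transcript against 49.6%.

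A few probe sets bear on how far a reading belongs to its gene. A probe set that names both Cpr67Fa1 and Cpr67Fa2 read 1.34 to 2.36. The set for Cpr67Fa2 alone read 1.44 to 2.03 and that for Cpr67Fa1 alone 1.02 to 1.14. A reading of the joint set cannot be assigned to either gene, and whether the sets share signal was not tested. Cpr47Ef was the 1 gene with a second set of its own, and the sets ranged from 1.11 to 1.52 and from 1 to 1.12. Cpr57A has only sets shared with Obp57d (1 to 1.15 and 1.01 to 1.68), and Cpr65Ax1 and Cpr65Ax2 share a set that read at most 1.06. These 3 genes and Cpr65Ay were not analysed further here.

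The comparison named in the series' design is the knockdown of dSTING in dsDNA-treated cells. limma, fitted to all 18769 probe sets on log2(intensity + 1), called 0 of 66 members at an adjusted p of 0.05 (smallest 0.901), where 0% of all probe sets were called. This fit, over all probe sets and with 2 arrays a group, did not call Sting itself, at -2.82 (SE 0.27, adjusted limma p 0.901). Nor did it call Sting in mock-treated cells at -3.15 (adjusted limma p 0.367) or in the mean knockdown effect at -2.99 (0.121), so 0 calls says little about the members. After median centring the same comparison called 3 of all probe sets and 0 of 66 members, and after a filter at the median level it called 3, with 0 of the 19 members that passed the filter. At an unadjusted p under 0.05 there were 4 members (6.06%), against 4.51% of all probe sets. The median difference of the 66 was 0.00 on the log2 scale, as it was for all probe sets. The 4 were Cpr66Cb at -0.17 (SE 0.03), Cpr78Cc at 0.12 (SE 0.05), Cpr97Eb at 0.11 (SE 0.04) and Cpr76Bc at 0.08 (SE 0.03). All 4 read at most 1.30 on every array. The floor can hide spread between arrays at 1, which makes an SE too small and can lower its p. Cpr76Bc read 1.10 and 1.13 in dSTING RNAi dsDNA cells, against 1 on both control dsDNA arrays. Cpr49Ac had the most positive difference, 0.22 (SE 0.11), with a 95% interval from -0.05 to 0.49, and rested on the control dsDNA arrays, at 0.10 without number 1 and 0.35 without number 2. Its mean intensity was 5.42 ± 0.65 in dSTING RNAi dsDNA cells, against 4.51 ± 0.67 in control dsDNA cells (mean ± SD of n = 2 arrays each), and the 2 groups overlapped.

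In mock-treated cells the knockdown also gave 0 calls among the 66 (smallest adjusted limma p 0.851; 0% of all probe sets). Unadjusted, 3 members were under 0.05 (4.55%, against 4.72% of all probe sets), and all 3 were lower in RNAi cells. They were Cpr66Cb at -0.18 (SE 0.03), Cpr49Ag at -0.18 (SE 0.06) and Cpr47Ed at -0.14 (SE 0.05). Cpr49Ag read 1.40 and 1.35 in dSTING RNAi mock cells, against 1.58 and 1.80 in control mock cells. Cpr47Ed read 1.09 and 1.10 in dSTING RNAi mock cells, against 1.33 and 1.28 in control mock cells. Next in order of p was Cpr49Ae, with 0.10 (SE 0.04) and readings of 1.26 on both dSTING RNAi mock arrays, against 1.20 and 1.04 on the control mock arrays. Cpr49Ac had a difference of 0.11 (SE 0.11), with an interval from -0.16 to 0.38. The 2 knockdown comparisons share no arrays, but use the same estimate of a gene's spread from all 8. Their p-values are therefore not independent.

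Cpr66Cb had the smallest p of any member in both knockdown comparisons. Its intensity was 1 and 1.03 in dSTING RNAi dsDNA cells, 1.02 and 1 in dSTING RNAi mock cells, 1.27 and 1.28 in control dsDNA cells, and 1.26 and 1.30 in control mock cells. All 4 RNAi arrays were at or just above the floor, all 4 control arrays lay slightly over it, and the sets did not overlap. The mean was 1.01 ± 0.02 in RNAi and 1.28 ± 0.02 in control arrays (SD, n = 4 each). Averaged over both treatments the log2 difference was -0.18 (SE 0.02), with limma p-values of 0.000176 unadjusted and 0.663 adjusted. Of the 4 RNAi arrays 2 were at exactly 1, where the floor hides any spread. The SD and SE may therefore be too small, which can lower the p. A model of 4 RNAi against 4 control arrays with no term for dsDNA, run because an earlier analysis of these data had shown a call there, put it past the threshold (adjusted p 0.0443), as 1 of the 4 probe sets called (0.0213% of all). With any of the 8 arrays left out of that model it was not called (0.115 to 0.206). Without the 2 arrays that stood apart, the 4-group model gave -0.18 (adjusted p 0.526).

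Among all 66 members, Cpr66Cb and Cpr49Ag alone had 4 RNAi arrays that did not overlap the 4 control arrays, both on the lower side, and 0 members did so on the higher side. That is 3.03% of members lower, against 1.25% of all probe sets, and 0% higher, against 1.06%. Cpr49Ag read 1.35 to 1.54 in RNAi arrays and 1.58 to 1.80 in control arrays, with a mean difference of -0.13 (SE 0.04), which was -0.07 without the 2 arrays that stood apart. In the mean knockdown effect 0 members were called (0% of all probe sets), and 4 were under an unadjusted p of 0.05 (6.06%, against 4.76% of all probe sets). Beside these 2, they were Cpr49Ae at 0.09 (SE 0.03) and Cpr78Cc at 0.09 (SE 0.03). Cpr78Cc was at 1 on all 4 control arrays and on 1 RNAi array, and read 1.12 to 1.24 on the other 3. Cpr49Ac had a mean difference of 0.17 (SE 0.07), with an interval from -0.02 to 0.36, and 0.10 without control dsDNA array 1.

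**Figure D3:**
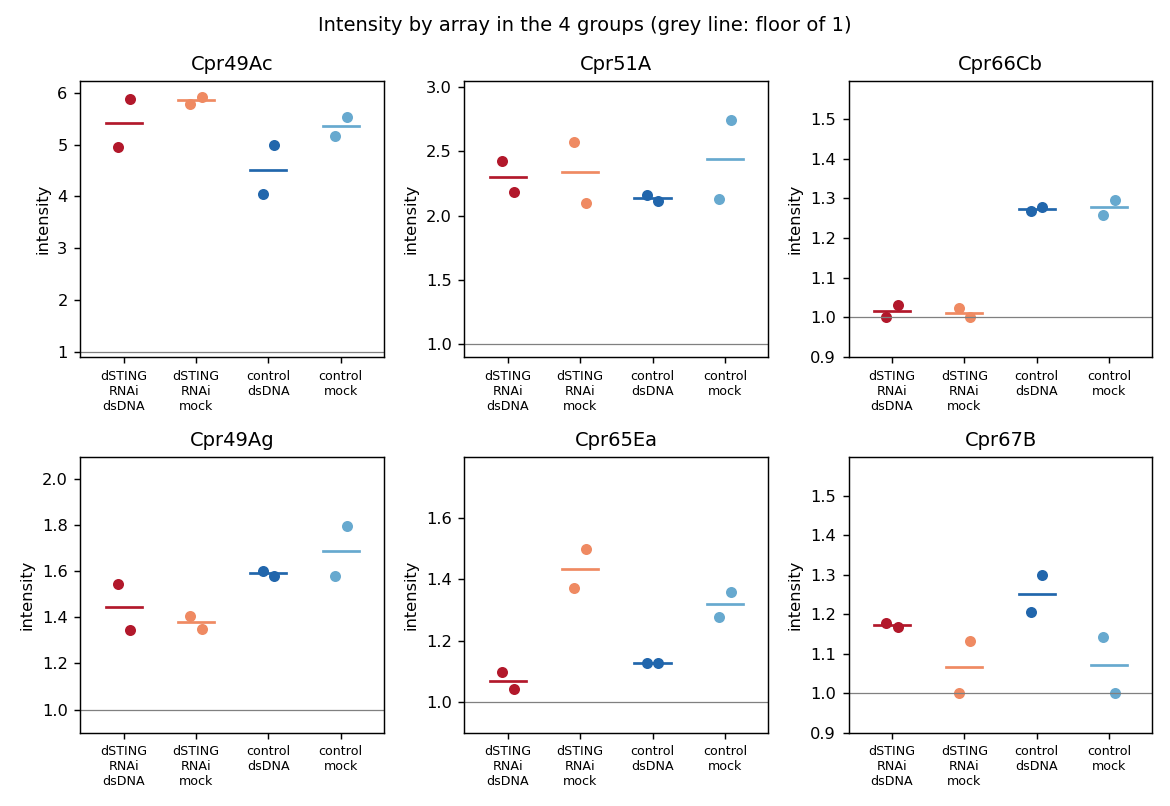
Intensity (vertical) of 6 Cpr genes on the 2 arrays (points) of each group, with the group mean as a bar and the floor of 1 as a grey line. Scales differ between panels. Cpr66Cb is at 1 to 1.03 in RNAi and 1.26 to 1.30 in control groups, and Cpr65Ea is at 1.04 to 1.13 in dsDNA and 1.28 to 1.498 in mock groups.

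In control cells the dsDNA gave 0 calls among the 66 members (smallest adjusted limma p 0.912; 0% of all probe sets). Unadjusted, 3 members were under 0.05 (4.55%, against 5.25% of all probe sets), all lower with dsDNA: Cpr65Ea at -0.12 (SE 0.04), Cpr47Ed at -0.14 (SE 0.05) and Cpr78Cb at -0.09 (SE 0.03). Cpr60D followed at -0.10 (SE 0.04). Cpr47Ed read 1.03 and 1.16 in control dsDNA cells, against 1.33 and 1.28 in control mock cells, the same control mock arrays that its knockdown difference rests on. Cpr78Cb was at 1 on both control dsDNA arrays, against 1.10 and 1.16 on the control mock arrays. Cpr49Ac had -0.21 (SE 0.11), with an interval from -0.48 to 0.06, and -0.08 without control dsDNA array 1 or -0.33 without array 2.

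In dSTING RNAi cells the dsDNA likewise gave 0 calls (smallest adjusted limma p 1; 0% of all probe sets). There were 3 members under an unadjusted p of 0.05 (4.55%, against 4.37% of all probe sets): Cpr65Ea at -0.23 (SE 0.04), Cpr97Eb at 0.13 (SE 0.04) and Cpr23B at 0.12 (SE 0.04). Cpr97Eb read 1.16 and 1.25 in dSTING RNAi dsDNA cells, against 1.04 and 1 in dSTING RNAi mock cells. Cpr23B read 1.10 and 1.26 in dSTING RNAi dsDNA cells, against 1 and 1.01 in dSTING RNAi mock cells. Cpr47Eb followed at -0.14 (SE 0.06), with 1.06 on both dsDNA arrays, against 1.31 and 1.23 on the mock arrays.

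Cpr65Ea had the smallest p of any member in both dsDNA comparisons. These compare different arrays but use the same estimate of a gene's spread from all 8, so their p-values are not independent. Its intensity was 1.10 and 1.04 in dSTING RNAi dsDNA cells, against 1.37 and 1.498 in dSTING RNAi mock cells. It was 1.13 on both control dsDNA arrays, against 1.28 and 1.36 in control mock cells. The 4 dsDNA arrays did not overlap the 4 mock arrays, and the mean was 1.10 ± 0.04 with dsDNA and 1.38 ± 0.09 in mock (SD, n = 4 each). The mean log2 difference was -0.18 (SE 0.03), with limma p-values of 0.00102 unadjusted and 0.894 adjusted. Without the 2 arrays that stood apart it was -0.16. Its neighbours in band 65E, Cpr65Eb and Cpr65Ec, ranged from 1 to 1.54 and from 1 to 1.18, with overlapping groups.

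Over both RNAi states, Cpr65Ea was the 1 member with all 4 dsDNA arrays below all 4 mock arrays (1.52%, against 1.34% of all probe sets), and Cpr67B the 1 member with all 4 above (1.52%, against 1.11%). Cpr67B read 1.17 to 1.30 with dsDNA and 1 to 1.14 in mock, at 1 on 2 of the 4 mock arrays, with a mean difference of 0.10 (SE 0.04). These were also the 2 members under an unadjusted p of 0.05 in the mean dsDNA effect (3.03%, against 5.38% of all probe sets), and 0 were called (0% of all probe sets). Cpr47Eb (-0.10, SE 0.04) and Cpr60D (-0.07, SE 0.03) came next in that comparison.

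Whether the effect of dsDNA depended on dSTING was tested as the interaction, the difference with dsDNA in dSTING RNAi cells minus that in control cells. limma called 0 of 66 members (0% of all probe sets), and 0 members (0%) had an unadjusted p under 0.05, against 4.19% of all probe sets. The smallest unadjusted limma p, 0.0601, belonged to Cpr97Eb (0.14, SE 0.06), followed by Cpr65Ea (-0.11, SE 0.06), Cpr23B (0.12, SE 0.06) and Cpr47Ed (0.13, SE 0.07). For Cpr66Cb the interaction was 0.01 (SE 0.04) and for Cpr49Ac 0.11 (SE 0.15), which was -0.02 without control dsDNA array 1.

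**Figure D4:**
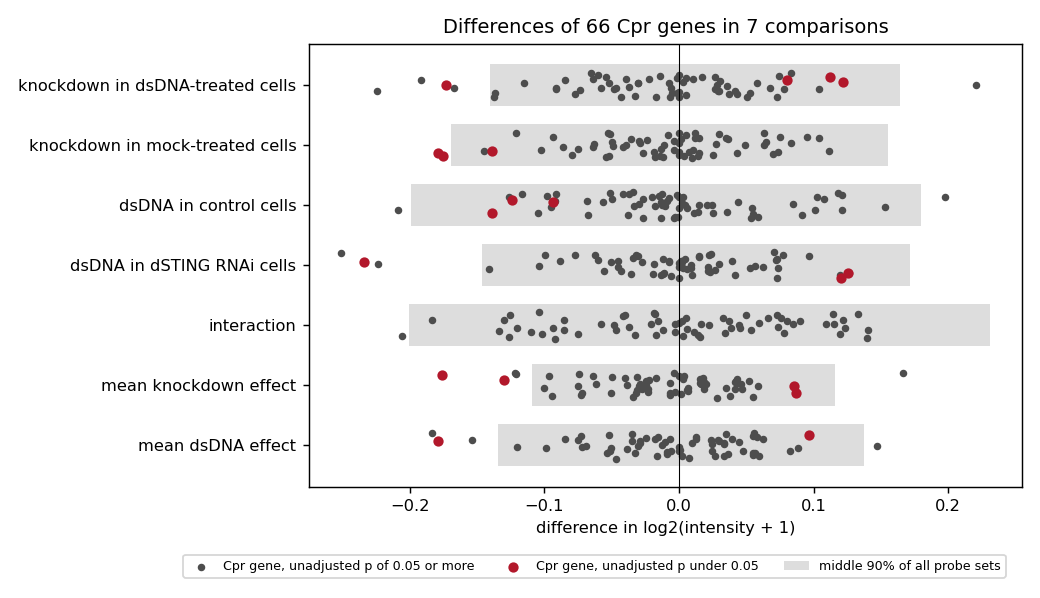
Difference in log2(intensity + 1) (horizontal) of each of the 66 Cpr genes (points) in 7 comparisons (rows), with red for an unadjusted limma p under 0.05 and a grey bar for the middle 90% of all 18769 probe sets. Members lie between -0.25 and 0.22 in every comparison, 0 pass the adjusted threshold, and red points number 0 to 4 a row.

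Unadjusted 95% intervals give the precision of each difference, and do not bound what the adjusted test leaves uncalled, as Sting shows. In both knockdown comparisons, in dsDNA in control cells and in both mean effects, the 95% interval of all 66 members lay within 0.5 of 0 on the log2(intensity + 1) scale. For dsDNA in dSTING RNAi cells it did so for 65, all but Cpr47Eg, and for the interaction for 59. On that scale a gene whose intensity went to 2 from the floor of 1 would change by 0.58. Members near the floor have little room to fall, so a narrow interval there does not bound the change in their transcripts. The intervals rest on 2 arrays a group and share 1 fit across all probe sets.

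Spread between the 2 arrays of a group was as large as anything between groups for the more variable members. The median absolute log2 difference between the 2 arrays of a group was 0.05 to 0.06 over members. The ratio of highest to lowest array was greatest for Cpr47Eg (1.83), Cpr30B (1.69), Cpr49Aa (1.61), Cpr30F (1.55) and Cpr76Ba (1.55). Cpr47Eg read 1.10 and 1 in dSTING RNAi dsDNA cells, 1.10 and 1.83 in dSTING RNAi mock cells, 1.02 and 1.26 in control dsDNA cells, and 1.28 and 1.36 in control mock cells. Its reading of 1.83 on 1 dSTING RNAi mock array stood against 1.10 on the other. Cpr49Aa read 1.61 and 1.01 on the 2 dSTING RNAi dsDNA arrays, and Cpr76Ba 1.34 and 2.07 on the 2 control dsDNA arrays. Cpr30B was lowest on the dSTING RNAi dsDNA arrays, at 1.09 and 1.02, and highest on 1 control mock array, at 1.73, with 1.17 on the other.

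Other structural cuticle genes lay near the floor as well. Genes with the same domain but other names, such as the larval Lcp genes and the Ccp84 cluster, had 15 measured of 28 listed and 0 of them above a level of 3. Lcp65Aa read 1.80 to 2.34, Pcp 1.06 to 1.49 and Ccp84Ac 1 to 1.45. The Tweedle genes, a separate cuticle protein family, had 25 measured and 0 above that level, with TwdlO at 1.55 to 2.06, TwdlM at 1.05 to 1.65 and TwdlH at 1.14 to 1.55. The obstructor genes for secreted chitin-binding proteins had 0 of 10 above it (obst-E 1.04 to 1.59, obst-H 1 to 1.56, obst-A 1 to 1.53), and genes of zona pellucida proteins of the apical matrix 0 of 9 (qsm 1.26 to 2.14, neo 1.04 to 1.43, cyr 1 to 1.43).

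Some genes of lists that reach beyond cuticle read well above the floor. Shares above a level of 3 were 32.3% for chitin synthesis and modification, 10.0% for hardening and pigment and 7.14% for timing regulators. Of all genes, 29.6% lay above it. The median intensities of these lists were 1.24, 1.19 and 1.17, against 1.11 for Cpr genes, so most of their genes were dim as well. Of 31 genes for chitin synthesis and modification 10 lay above a level of 3, led by Idgf6 (194 to 217) and Idgf3 (155 to 188), which encode secreted chitinase-like proteins without enzyme activity, and Gfat2 (86.6 to 109), for the first enzyme of the hexosamine pathway. kkv, the chitin synthase of epidermis, read 1 to 1.32. Among 20 hardening and pigment genes 2 lay above that level. yellow-f, a dopachrome conversion enzyme gene, read 34.3 to 91.6, its relative yellow-f2 5.55 to 7.55 and yellow-h 6.53 to 13.8. Of 14 regulators of cuticle gene timing, ftz-f1, a nuclear receptor gene, was the 1 above it at 11.1 to 20.6, with Hr39 at 4.62 to 7.17 and usp, which encodes the partner of the ecdysone receptor, at 3.56 to 5.40.

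Of 17 hemocyte markers 7 lay above a level of 3, among them Col4a1 (189 to 243), Pvr (96.8 to 132), vkg (85.1 to 114) and the blood cell GATA factor gene srp (34.8 to 54.8), while the other 10 did not. Among those 10, Hml read 1.56 to 3.99, ItgaPS4 1.75 to 2.59 and PPO2 1.04 to 1.65, and Pxn, He, eater, Sr-CI, lz, PPO1 and atilla read at most 1.42 on any array. Of 10 epidermis markers 2 lay above a level of 3, cora (19.8 to 25.8) and crb (9.16 to 14.2), while shg read 1 to 1.57 and grh, the epidermal transcription factor gene, 1 to 1.43. No muscle (0 of 5), neuron and glia (0 of 5) or fat body (0 of 5) marker did so. Mlc2 reached 1.42, TpnC73F 1.47 and Act88F 1.27, Yp1 1.19, Fbp2 1.21 and Lsp2 1.22, and brp 1.75 and nSyb 1.64, while elav read 5.01 to 6.78 in the RNAi arrays and 4.18 to 4.83 in the control arrays. Neuron and glia markers summed to 9.51 to 11.2 in the RNAi arrays and 8.35 to 9.42 in the control arrays. These sums do not overlap, but elav gave their largest part. Among all probe sets, 1.06% had 4 RNAi arrays all above the 4 control arrays. That share is of single probe sets, so it can be set beside elav but not beside a sum of 5 genes. The median log2 difference of the 5 markers in the mean knockdown effect was -0.004. Hemocyte markers summed to 489 to 560 in the RNAi arrays and 516 to 584 in the control arrays. Epidermis markers summed to 40.5 to 49.0 in the RNAi arrays and 41.3 to 47.4 in the control arrays, and the part of these marker lists in the Cpr readings was not tested.

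Across the 7 comparisons 0 genes of these 12 lists were called by limma in either direction, where 0% of all probe sets were called. Unadjusted, each list, of 5 to 31 measured genes, had between 0 and 3 members under 0.05 in a comparison, where 4.19% to 5.38% of all probe sets were. In lists this small such counts are too coarse to set against that share. The medians of their log2 differences ran from -0.05 to 0.09. The Cpr medians ran from -0.01 to 0.00, and those of all probe sets were 0.00 in every comparison.

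**Figure D5:**
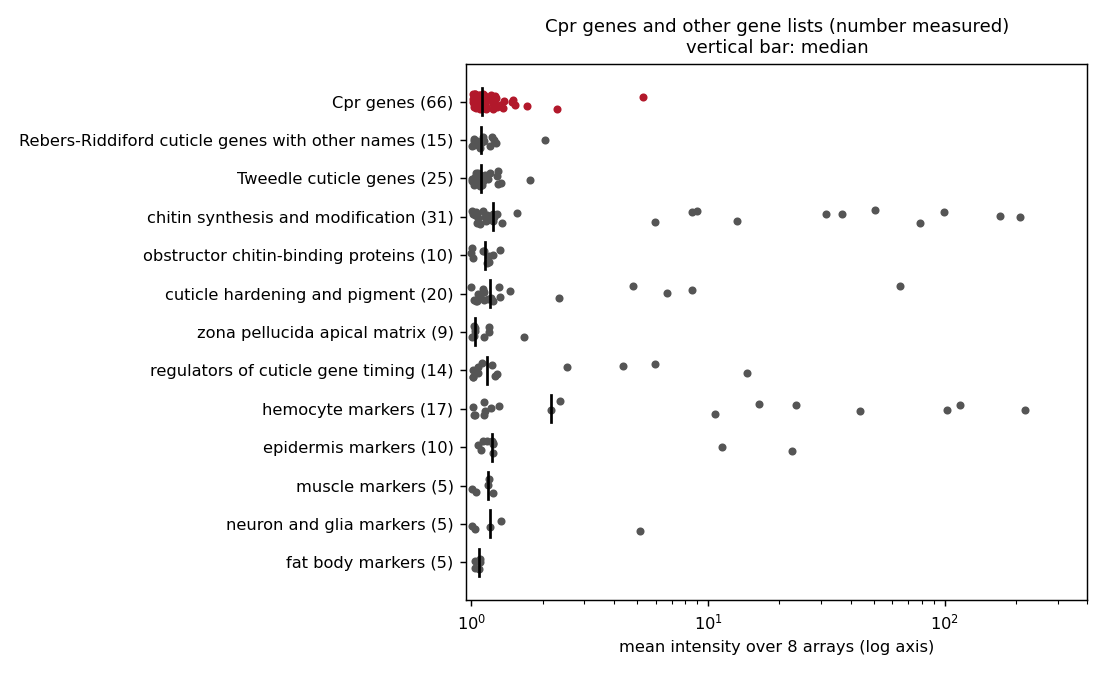
Mean intensity over the 8 arrays (horizontal, log axis) of each measured gene (points) of the Cpr family and 12 other lists (rows, number measured in brackets), with the median as a vertical bar. The Cpr genes and the other structural cuticle lists stay under 6, while Idgf6 averages 207 and Col4a1 218.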

How the data were processed

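The authors deposited linear intensities, 1 for each probe set on each array. How they corrected background and normalized is not stated in the sources used here. Per the labels' protocols total RNA was labelled with a 3' in vitro transcription kit. Of 18952 probe sets 183 AFFX controls were left out. Platform annotation, updated through gene identifiers, named 1 gene for 13647 probe sets, several for 402 and none for 4720, and all 66 Cpr genes were matched. limma 3.58.1 (R 4.3.3) was fitted to log2(intensity + 1) of 18769 probe sets on 8 arrays with 4 group means (4 residual degrees of freedom, 5.32 with the prior), for 7 two-sided contrasts with Benjamini-Hochberg adjustment over all probe sets. The code was tested on simulated data. SDs are over arrays, whose number limits the precision, and p-values measure the spread between arrays, since the labels name no separate cultures. Members and lists were chosen with earlier results of these data known. Named were the 10 members with the highest means, the 4 with the smallest p in each contrast, the 5 with the largest ratio of highest to lowest array and the 3 highest of each list. Other genes named (such as Cpr50Ca, Cpr56F, neighbours within a band, kkv, srp, Hml and grh) were chosen after their values were seen. Alternatives tried were quantile normalization, median centring, a block for the replicate number, filters on low values, trend and robust options, log2(intensity + 16), 1 probe set per gene, only the arrays compared, each array left out and, added later, the 2-group models.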

Additional observations from a re-analysis of the deposited data

How the results depend on the processing

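The count of called Cpr genes stayed at 0 in each comparison under every alternative that gave a value, except the 2-group model of the mean knockdown effect, which called 1, Cpr66Cb (-0.18, adjusted limma p 0.0443). No alternative called more than 4 of all its probe sets in a comparison, and most called 0. Counts of 0 among 66 members therefore say little about the members. With each array left out the counts were 0 to 0 in both models. The filter at the median level (9385 probe sets) kept 19 of 66 members, and that at a level of 3 (4189 probe sets) kept 0 and gave no value. At a level of 2 in place of 3, 1 Cpr gene lay above it, Cpr49Ac. Correlations of deviations between groups ran from -0.49 to 0.21 and rest on 2 arrays a group, so they cannot decide whether replicate numbers pair the samples. With the replicate number as a block 0 Cpr genes were called. Only the arrays compared was not run for the interaction and mean effects, which use all 8. The 4 changes with the smallest p in each of the 7 comparisons (28) were picked on the same arrays that the alternatives reuse, which favours a kept sign. They kept their sign under every alternative run. Other printed changes did not: over the alternatives the interaction ran from -0.04 to 0.23 for Cpr49Ac and from -0.03 to 0.02 for Cpr66Cb. The floor limits what dim probe sets can show.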
